A study of Mus musculus with 4 samples.

Results

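Several steps of glycolysis can each be carried out by more than 1 enzyme, and the genes for these isoenzymes (paralogs) are used to different degrees in different tissues. The 10 genes described here encode such isoenzymes at 5 steps: the hexokinases *Hk1* and *Hk2*, the phosphofructokinases *Pfkl*, *Pfkm* and *Pfkp*, the aldolases *Aldoa* and *Aldoc*, the enolases *Eno1* and *Eno2*, and the pyruvate kinase *Pkm*. They were taken by their symbols, and all 10 were found among the 39179 genes in the count files. RNA-seq was performed on parental B16F1 cells, a mouse melanoma line usually cultured on rigid dishes, and on tumor repopulating cells (TRCs), which are the B16F1 cells that survived in a soft 3D fibrin gel, grew into spheroids and were then isolated. There were 2 control libraries and 2 TRC libraries, named control 1, control 3, TRC 1 and TRC 3 after the numbers in the labels. The labels name no genetic change or drug that separates the groups, and selection in the gel, the gel itself and 3D growth cannot be told apart. The sources do not say whether the 2 libraries of a group came from separate cultures, and p-values then measure only the spread between these libraries, which may be technical.

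Hexokinase phosphorylates glucose when it enters the cell. HK1 is the form of most tissues, whereas HK2 is typical of muscle, fat and many tumors. Phosphofructokinase commits the sugar to glycolysis, and its subunits are named for liver (*Pfkl*), muscle (*Pfkm*) and platelet (*Pfkp*). Aldolase splits the sugar into 3-carbon units, with ALDOA found widely and ALDOC mainly in brain. Enolase forms phosphoenolpyruvate, and ENO2 is the neuronal form. Pyruvate kinase makes pyruvate and ATP, and *Pkm* yields the M1 or the M2 protein by a choice between a pair of exons. Many glycolytic genes carry hypoxia response elements, with the core ACGTG or GCGTG, to which hypoxia-inducible factor binds. MYC and MITF, the melanocyte master regulator, bind the E-box CACGTG.

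Between 35948295 and 43511554 counts fell on genes per library, and 11483 genes passed the filter on low counts and were tested, all 10 isoenzyme genes among them. Alignments that were not unique made up 15.2%, 17.1%, 18.3% and 25.2% of all alignments in control 1, control 3, TRC 1 and TRC 3. The 7 melanocyte markers (*Mitf*, *Sox10*, *Tyr*, *Tyrp1*, *Dct*, *Pmel* and *Mlana*) were expressed in every library, with a summed level of 15711.5 to 26669 CPM (counts scaled to the size of the library). Of the markers of other cell types, 5 of 7 leukocyte genes, 2 of 5 endothelial genes, 2 of 6 skeletal muscle genes and 2 of 5 hepatocyte genes were at 0 in all libraries, and none of these lists summed to more than 4.16 CPM in any library. The neuron markers summed to 119 and 88.3 CPM in the control libraries and 155 and 198 CPM in the TRC libraries, mostly from *Tubb3*, with *Snap25* and *Nefl* at 0 throughout and *Map2* lower in both TRC libraries than in either control library (log2 fold change −0.40, FDR 0.459).

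The sequence just upstream of the start is shown for 3 members, because they span what was found there: *Hk2* with ACGTG matches, *Pfkp* with GCGTG matches, and *Eno2*, the only member whose windows held neither. These are the 250 bases before the RefSeq start site in GRCm38.p6, all on the minus strand, written 5′ to 3′, at chr6:82774455-82774704 for *Hk2*, chr13:6648772-6649021 for *Pfkp* and chr6:124769674-124769923 for *Eno2*. Capitals mark ACGTG or GCGTG, read on either strand, so that ACGTG on the other strand appears as CACGT.
Hk2: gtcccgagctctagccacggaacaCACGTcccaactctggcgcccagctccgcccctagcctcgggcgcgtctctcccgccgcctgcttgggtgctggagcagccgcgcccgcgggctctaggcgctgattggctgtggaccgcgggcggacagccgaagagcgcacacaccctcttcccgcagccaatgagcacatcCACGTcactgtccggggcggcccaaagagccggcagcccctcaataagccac
Pfkp: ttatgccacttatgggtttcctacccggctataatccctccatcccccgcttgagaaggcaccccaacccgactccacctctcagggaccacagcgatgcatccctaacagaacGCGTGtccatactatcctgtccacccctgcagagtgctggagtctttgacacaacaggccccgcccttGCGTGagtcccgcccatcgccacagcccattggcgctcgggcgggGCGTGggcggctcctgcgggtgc
Eno2: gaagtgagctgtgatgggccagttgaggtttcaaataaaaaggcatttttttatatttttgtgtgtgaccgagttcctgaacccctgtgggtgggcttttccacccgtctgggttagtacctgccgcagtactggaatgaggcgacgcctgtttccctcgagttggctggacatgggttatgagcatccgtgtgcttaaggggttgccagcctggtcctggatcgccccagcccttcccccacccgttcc
In *Hk2* the matches begin 226 and 52 bases before the start, and in *Pfkp* 136, 68 and 23 bases before it. RefSeq gave 20 start sites for the 10 members, and ACGTG or GCGTG lay upstream of 15 of them, in 9 of the 10 genes. Of all 32851 mouse windows of this length, 38.6% held either motif, 16.6% ACGTG and 28.2% GCGTG. The count of 15 in 20 is per window as well, but several windows of a gene overlap and can repeat a match. The count of 9 in 10 is per gene, for which no share over all genes was computed. The E-box CACGTG, which contains ACGTG, was found upstream of 1 member, *Pfkm*, and in 6.02% of all windows. A match is only a run of letters in the window, and binding was not measured.

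The comparison of TRCs with parental control cells asked which of these genes differ between the groups. Of the 10 isoenzyme genes, 9 were higher in TRCs at a false discovery rate (FDR, Benjamini-Hochberg over all genes tested) under 0.05 by edgeR's exact test, 0 were lower, and *Eno2* did not pass. Across all genes tested, 15.9% were called, 8.81% as higher and 7.05% as lower. Their log2 fold changes had a median of 1.52 (0.89 without TRC 3), and those of all genes tested a median of 0.0034. The 9 called genes had higher levels in TRC 1 and TRC 3 than in either control library, which was so for 30.2% of all genes tested, while 30.4% were lower in this way. Without TRC 3, 5 of the 10 genes were called, namely *Hk2*, *Pfkl*, *Pfkp*, *Aldoa* and *Aldoc*. In a bulk sample, a larger share of cells that express a gene and more RNA per cell cannot be told apart.

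**Figure D1:**
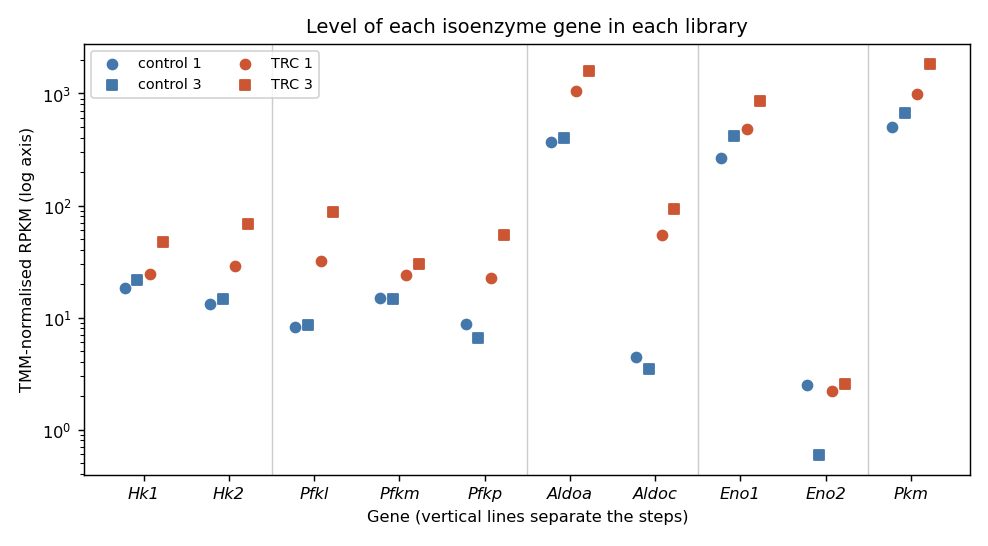
Level of each isoenzyme gene in each library, as TMM-normalised RPKM on a log axis, with control libraries in blue and TRC libraries in red and circles and squares for the libraries numbered 1 and 3. Both TRC points lie above both control points for 9 genes, and for *Eno2* they do not.

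Levels are given as RPKM, here counts per kb of exon (the union of a gene's exons) and library size, the latter in units of 1e6 counts after TMM scaling. The order in the text is always control 1, control 3, TRC 1 and TRC 3. Fold changes were computed from the counts and carry the standard error (SE) of the log2 value.

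The hexokinase genes both rose. *Hk2* (ENSMUSG00000000628, chr6:82725025-82774454, minus strand) stood at 13.2, 14.6, 28.8 and 67.9 RPKM. The TRC libraries were higher than either control library but differed from each other more than the control libraries did. Its log2 fold change was 1.8 (SE 0.35, FDR 9.55e-06), or 3.49-fold, and 1.05 without TRC 3. *Hk1* (ENSMUSG00000037012, chr10:62268855-62379908, minus strand) stood at 18.3, 21.4, 24.6 and 47.4 RPKM. Its TRC 1 value was close to control 3, and TRC 3 was far above the others. The log2 fold change of *Hk1* was 0.86 (SE 0.31, FDR 0.0299), which fell to 0.30 (FDR 0.622) without TRC 3, and the FDR was 0.173 without control 1 and 0.111 without control 3. Of the remaining hexokinase genes, *Hk3* had 0 counts in every library, and *Hkdc1* had 5 to 20 counts.

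The share of a gene in its step is its counts per kb divided by the sum over all paralogs of the step. It compares genes within a library and does not depend on library scaling. With 2 libraries against 2, the exact two-sided permutation test cannot give a p below 0.333, so for shares only the values, their spread and whether the groups overlap are compared. The 95% Wilson interval of a member's share was at most 2.72 percentage points wide in any library. Intervals and limits for counts of 0 cover counting error only.

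In control cells *Hk1* made up 58.0% and 59.5% of the hexokinase step, and in TRCs 46.1% and 41.1%. The share of *Hk2* was 41.9% and 40.4% in control cells and 53.9% and 58.8% in TRCs. The groups did not overlap, and *Hk2* went from the smaller to the larger share in both TRC libraries. Its mean was 41.1% ± 1.07 (SD, n = 2) in control cells and 56.4% ± 3.49 (SD, n = 2) in TRCs, a difference of 15.2 points (exact permutation p = 0.333). *Hkdc1* stayed at or below 0.17% of the step. A count of 0 allows *Hk3* up to 0.031% of the counts of the step in the library with the fewest. Which of *Hk1* and *Hk2* leads in TRCs depends on the exon length assigned to each. When the length of the longest protein-coding transcript was used in place of the union of exons, the share of *Hk2* was 27.5% in control cells and 41.3% in TRCs, so that *Hk1* stayed ahead. The change of the ratio does not depend on length: the log2 ratio of *Hk2* to *Hk1* was −0.47, −0.56, 0.23 and 0.52, and the ratio was 1.85-fold higher in TRCs.

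Summed over its paralogs, the hexokinase step stood at 31.5, 36.1, 53.5 and 115 RPKM, 2.50-fold higher in TRCs by the means. *Hk2* accounted for 68.1% of the increase and *Hk1* for 31.9%, or 53.6% and 46.3% by the longest protein-coding transcript.

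All 3 phosphofructokinase genes rose, but to different degrees. *Pfkl* (ENSMUSG00000020277, chr10:77986947-78010083, minus strand), the liver-type subunit, stood at 8.32, 8.66, 32.2 and 87.9 RPKM. Both TRC libraries were far above the control libraries, which were close together, and TRC 3 was well above TRC 1. This was the largest change in the step, at 2.82 on the log2 scale (SE 0.38, FDR 1.19e-10), or 7.08-fold, and 1.92 without TRC 3. *Pfkp* (ENSMUSG00000021196, chr13:6579768-6648777, minus strand), the platelet-type subunit, stood at 8.70, 6.52, 22.6 and 54.9 RPKM, which is 5.09-fold or 2.35 on the log2 scale (SE 0.36, FDR 2.40e-08), and 1.56 without TRC 3. *Pfkm* (ENSMUSG00000033065, chr15:98092589-98132451, plus strand), the muscle-type subunit, stood at 15.1, 14.7, 24.0 and 30.3 RPKM. Its log2 fold change was 0.87 (SE 0.22, FDR 0.00267), or 1.83-fold, and without TRC 3 it was 0.68 (FDR 0.146).

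Because of these unequal changes the makeup of the step differed. *Pfkm* held 47.0% and 49.2% of the phosphofructokinase step in control cells and 30.5% and 17.5% in TRCs. Its mean share was 48.1% ± 1.57 (SD, n = 2) in control cells and 24.0% ± 9.15 (SD, n = 2) in TRCs, a difference of −24.1 points (exact permutation p = 0.333). *Pfkl* held 25.9% and 29.0% in control cells and 40.8% and 50.8% in TRCs, a difference of 18.4 points. *Pfkp* held 27.1% and 21.8% in control cells and 28.7% and 31.7% in TRCs, a difference of 5.71 points in which the gap between the groups was smaller than the spread between the control libraries. For all 3 genes the groups did not overlap by this length. *Pfkm* was thus the largest share of the step in both control libraries by this length and *Pfkl* in both TRC libraries.

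This order, too, rests on the length. The annotated exons of *Pfkp* cover 13401 bases, but its longest protein-coding transcript 4145. By the longest protein-coding transcript *Pfkp* held the largest mean share in both groups, with 42.9% in control cells and 47.0% in TRCs, while *Pfkl* went from 26.8% to 39.4% and *Pfkm* from 30.3% to 13.5%. By counts without a length, the share of *Pfkm* went from 23.9% to 10.3%. The shares of *Pfkp* overlapped between the groups by the longest protein-coding transcript and by counts, and its difference was 4.11 and 2.45 points. The lower share of *Pfkm* and the higher share of *Pfkl* in TRCs were present by each of these measures. The log2 ratio of *Pfkl* to *Pfkm* was −0.86, −0.76, 0.42 and 1.53, and the ratio was 3.46-fold higher in TRCs. For *Pfkp* to *Pfkm* it was 2.58-fold higher. For *Pfkl* to *Pfkp* it was 1.34-fold higher, with log2 ratios of −0.07, 0.41, 0.51 and 0.68, so that control 3 was close to TRC 1.

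The step as a whole stood at 32.1, 29.9, 78.8 and 173 RPKM, 4.07-fold higher in TRCs by the means. *Pfkl* contributed 54.3% of the increase, *Pfkp* 32.8% and *Pfkm* 12.9%. By the longest protein-coding transcript *Pfkp* contributed most, with 48.6%, before *Pfkl* with 44.5% and *Pfkm* with 6.89%, and by counts *Pfkp* contributed 52.0%.

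**Figure D2:**
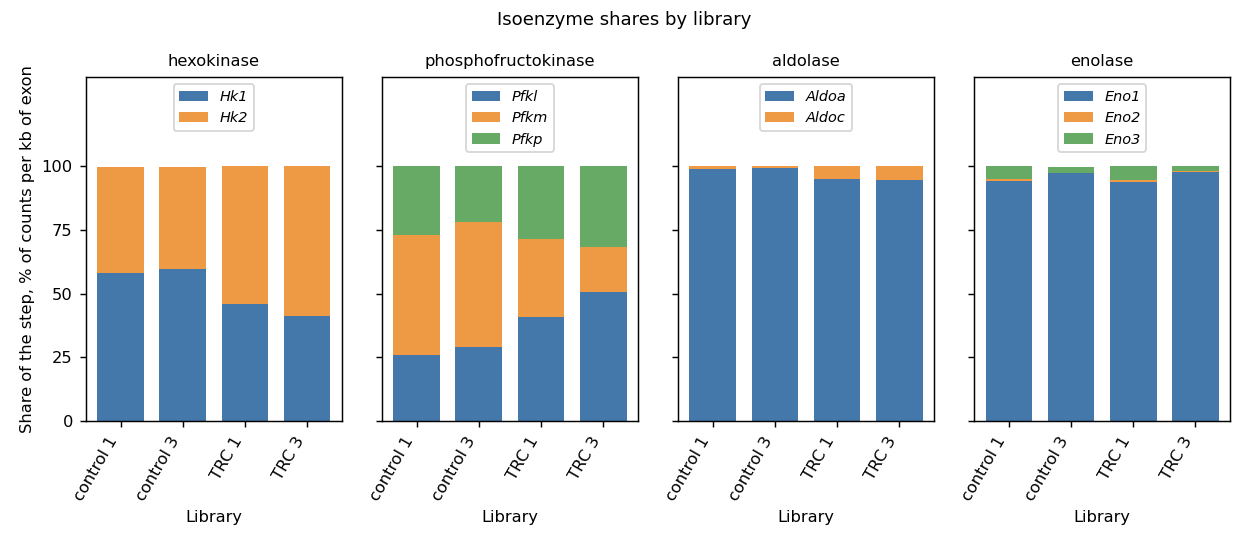
Share of each paralog in its step in each library, as percent of the counts per kb of exon summed over the step, for 4 steps (pyruvate kinase is 100% *Pkm*). In TRCs *Hk2* and *Pfkl* take larger parts and *Pfkm* a smaller part than in control cells, and *Aldoc* goes from about 1.03% to 5.22%. The enolase bars differ more within groups than the group means do, with *Eno1* at a mean of 95.7% in control cells and 95.9% in TRCs.

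*Aldoc* (ENSMUSG00000017390, chr11:78322968-78327781, plus strand), the brain-type aldolase, had the largest fold change of the 10 genes. It stood at 4.45, 3.49, 54.3 and 92.7 RPKM, from 646, 402, 7361 and 12588 counts. Both TRC libraries were more than 10 times either control library. This log2 fold change was 4.21 (SE 0.29, FDR 2.32e-36), or 18.5-fold, rank 24 of 11483 when genes were ordered from the largest increase. *Aldoa* (ENSMUSG00000030695, chr7:126795234-126800751, minus strand), the widespread form, stood at 368, 399, 1044 and 1590 RPKM. Its log2 fold change was 1.78 (SE 0.25, FDR 3.16e-09), or 3.43-fold.

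In spite of the fold change of *Aldoc*, *Aldoa* remained the main aldolase transcript in every library. *Aldoa* made up 98.8% and 99.1% of the step in control cells and 95.1% and 94.5% in TRCs, a difference of −4.20 points (exact permutation p = 0.333). *Aldoc* made up 1.19% and 0.87% in control cells and 4.94% and 5.51% in TRCs, with means of 1.03% ± 0.23 (SD, n = 2) and 5.22% ± 0.40 (SD, n = 2). The groups did not overlap, and the distance between them was larger than the spread within either. The log2 ratio of *Aldoc* to *Aldoa* was −6.37, −6.84, −4.27 and −4.10, so that the ratio was 5.35-fold higher in TRCs. The step total of 373, 402, 1098 and 1683 RPKM was 3.59-fold higher by the means, with 93.1% of the increase from *Aldoa* and 6.93% from *Aldoc* (4.43% by the longest protein-coding transcript). The testis genes *Aldoart1* and *Aldoart2* had 6 counts or fewer.

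Since *Aldoc* changed most, the 3 tested genes with the most similar pattern over the 4 libraries were looked up by the Euclidean distance of centred log2(CPM + 0.5) values. The nearest was *Atp7b*, a copper-transporting ATPase (distance 0.25), at 0.45, 0.43, 10.6 and 20.6 CPM. *Aire*, the autoimmune regulator of the thymus, followed (0.35), at 0.045, 0.028, 5.34 and 9.49 CPM, where the control values lie under the floor of 3 counts. *Pdk1*, a kinase that restrains the entry of pyruvate into the citric acid cycle, came next (0.55), at 17.2, 11.0, 156 and 437 CPM. They were selected for this pattern, so that their values are a description, and *Atp7b* and *Aire* passed the filter on low counts only through the TRC libraries. At such low control levels the distance depends on the 0.5 CPM that was added.

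In the enolase step the shares of the groups overlapped. *Eno1* (ENSMUSG00000063524, chr4:150236721-150248879, plus strand), the widespread form, stood at 268, 414, 482 and 854 RPKM. Control 3 lay nearer to TRC 1 than to control 1. It was higher by 0.97 on the log2 scale (SE 0.31, FDR 0.0172), or 1.96-fold, and the call was lost without TRC 3 (0.49, FDR 0.424) and without control 1 (0.69, FDR 0.200). *Eno2* (ENSMUSG00000004267, chr6:124760053-124769673, minus strand), the neuronal form, stood at 2.48, 0.590, 2.19 and 2.56 RPKM, from 519, 98, 428 and 501 counts. Control 1 lay between the TRC libraries and control 3 far below them. The difference of 0.63 on the log2 scale (SE 0.55, FDR 0.491) did not pass the test. It was 2.01 (FDR 0.00175) without control 1 and −0.06 (FDR 0.966) without control 3. Of the neuron markers tested, *Tubb3* had a log2 fold change of 0.92 (FDR 0.00489) and *Map2* of −0.40 (FDR 0.459), and the part of neuronal genes in the values of *Eno2* was not tested.

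*Eno1* made up 94.0% and 97.4% of the enolase step in control cells and 94.0% and 97.7% in TRCs, a difference of 0.16 points with overlapping groups. *Eno2* stayed under 1% in every library, at 0.87%, 0.14%, 0.43% and 0.29%. The muscle enolase *Eno3*, which is not among the 10 genes, held 5.01%, 2.35%, 5.49% and 1.91% of the step and rose by 0.89 on the log2 scale (SE 0.32, FDR 0.0339), a call lost without control 3 (0.65, FDR 0.336) or TRC 1 (0.44, FDR 0.587), and also without a filter, with library size only and by the quasi-likelihood test. The log2 ratios of *Eno2* to *Eno1* and of *Eno3* to *Eno1* differed by 0.02 and −0.09 between groups and overlapped. The step stood at 285, 425, 512 and 874 RPKM, 1.95-fold higher in TRCs by the means, and 96.7% of this came from *Eno1*. Of the 101-base windows of the *Eno1* transcript, 58.8% also occur in transcripts of other genes, mostly *Eno1b*. Reads from such windows are not unique, so that the level of *Eno1* and its share may be understated. *Eno1b* had 22 to 38 counts per library and *Eno4* had 0.

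*Pkm* (ENSMUSG00000032294, chr9:59656368-59679375, plus strand) had the highest mean counted level of the 10 genes in both groups, at 504, 675, 981 and 1850 RPKM. Since the level of *Eno1* may be understated, the order of *Pkm* and *Eno1* is not settled. Its log2 fold change was 1.26 (SE 0.31, FDR 0.000950), or 2.40-fold, and 0.73 (FDR 0.129) without TRC 3. *Pklr*, which encodes the pyruvate kinase of liver and red cells, had 0 counts in every library against 112135 to 384940 of *Pkm*, so that *Pkm* made up 100% of the step. The 0 counts allow *Pklr* at most 0.0027% of the counts of the step. Counts per gene do not separate the M1 and M2 forms. Of the 5 splicing factors listed for this exon choice 0 passed the test, with log2 fold changes of −0.65 for *Ptbp1* (FDR 0.0645), −0.55 for *Ptbp2* (FDR 0.120), −0.21 for *Hnrnpa1* (FDR 0.620), −0.43 for *Hnrnpa2b1* (FDR 0.236) and −0.55 for *Srsf3* (FDR 0.0875). By DESeq2's Wald test *Ptbp1* (FDR 0.0469) and *Srsf3* (FDR 0.0316) passed, and *Ptbp1* also did with scaling to library size only (FDR 0.0341) and without control 1 (FDR 0.0241).

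**Figure D3:**
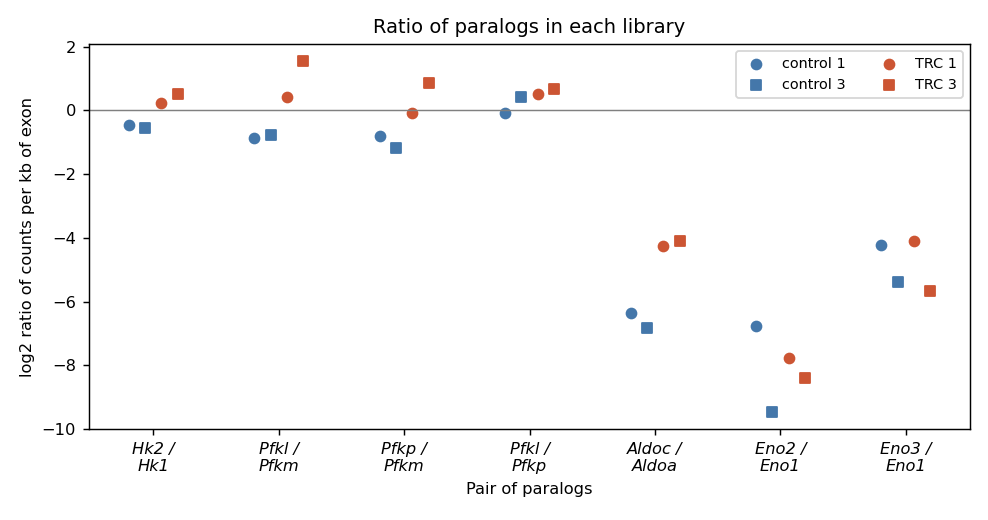
Log2 ratio of counts per kb of exon between paralogs of the same step in each library, for 7 pairs, with control libraries in blue and TRC libraries in red. The TRC points lie above the control points for the hexokinase, phosphofructokinase and aldolase pairs, whereas the points of the enolase pairs overlap.

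For 5 of the 7 pairs of paralogs compared the ratios of TRCs and control cells did not overlap. Each of these 5 had an exact permutation p of 0.333, the smallest possible, and 0.467 after adjustment over the 7 pairs. These 5 are not independent, since the ratio of *Pfkl* to *Pfkp* follows from the other ratios of that step. Among all single genes tested, 30.2% were higher and 30.4% lower in TRCs without overlap of the groups. No such share was computed for ratios between genes. The levels of the 10 genes spanned a wide range in either group. In control cells the order by mean RPKM was *Pkm*, *Aldoa*, *Eno1*, *Hk1*, *Pfkm*, *Hk2*, *Pfkl*, *Pfkp*, *Aldoc* and *Eno2*. The neighbours *Aldoa* and *Eno1* overlapped in this order, as did *Pfkl* and *Pfkp*. In TRCs it was *Pkm*, *Aldoa*, *Eno1*, *Aldoc*, *Pfkl*, *Hk2*, *Pfkp*, *Hk1*, *Pfkm* and *Eno2*. There, the ranges over the libraries of *Pkm* and *Aldoa* overlapped, and those of every neighbouring pair from *Aldoc* to *Pfkm*. Compared within each TRC library, only *Pkm* and *Aldoa*, and *Pfkp* and *Hk1*, changed order between TRC 1 and TRC 3. The other neighbours kept their order in both. *Aldoc* thus stood at rank 9 in control cells and rank 4 in TRCs, and *Pfkm* at rank 5 and rank 9. This order rests on the union of exons as well, and *Eno1* may stand too low in it. Of the 101-base windows, 58.8% of *Eno1* and 9.52% of *Pkm* also occur in transcripts of other genes. By the longest protein-coding transcript *Aldoc* stood at rank 9 and rank 6, *Pfkm* at rank 6 and rank 9, and *Pfkp* at rank 5 and rank 4.

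The TRC libraries differed from each other in all 10 genes in the same way. TRC 3 was above TRC 1 in 10 of 10, with a median log2 difference of 0.87, whereas control 3 was above control 1 in 6 of 10, with a median of 0.09. Among the 9 further glycolytic genes tested, described below, TRC 3 was above TRC 1 in 7, with a median of 0.85. Control 3 was also above control 1 in 8 of these 9, with a median of 0.40, against 0.0042 over all genes tested. The excess of library 3 in these genes was thus present in both groups, with the larger median in TRCs. The paralog *Eno3* was lower in TRC 3 than in TRC 1 (−0.74) and in control 3 than in control 1 (−0.50). Over all genes tested, TRC 3 was above TRC 1 in 50.1%, with a median absolute difference of 0.21. The difference was 1.45 for *Pfkl*, 1.28 for *Pfkp* and 1.23 for *Hk2*, and only 0.34 for *Pfkm* and 0.22 for *Eno2*. The share of alignments that were not unique was also highest in TRC 3, and its part in these values was not tested.

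Most other enzymes of the pathway were also higher in TRCs. Of 13 further glycolytic genes, 9 were tested, 7 were called higher in TRCs and 0 lower, against 8.81% and 7.05% of all genes tested. The 9 genes had a median log2 fold change of 1.36 (0.96 without TRC 3), and by the quasi-likelihood test 5 of them were called. *Gpi1*, which interconverts the hexose phosphates between hexokinase and phosphofructokinase, rose by 2.0, and the triose phosphate isomerase gene *Tpi1* by 1.87 on the log2 scale. *Pgk1* rose by 1.68, *Pgam1* by 1.36 and *Gapdh* by 1.25, which together carry the triose phosphates to 2-phosphoglycerate. The lactate dehydrogenase genes *Ldha* and *Ldhb* rose by 1.63 and 0.89. Without TRC 3, 5 of these genes were called, with *Gapdh* at 0.66 (FDR 0.183) and *Pgam1* at 0.78 (FDR 0.124) no longer among them and *Tpi1* at 1.07, *Pgk1* at 1.04 and *Ldha* at 1.13 still called; without TRC 1 *Ldhb* was at 0.79 (FDR 0.0803), and without control 1 *Gapdh* was at 1.06 (FDR 0.0547). *Bpgm*, which makes 2,3-bisphosphoglycerate, had a value of 0.54 (FDR 0.0827) and *Adpgk*, which phosphorylates glucose with ADP, had a value of −0.22 (FDR 0.603), and neither passed. *Gapdhs*, *Pgk2*, *Pgam2* and *Ldhc*, which are forms of testis or muscle, were not tested because of their low counts.

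**Figure D4:**
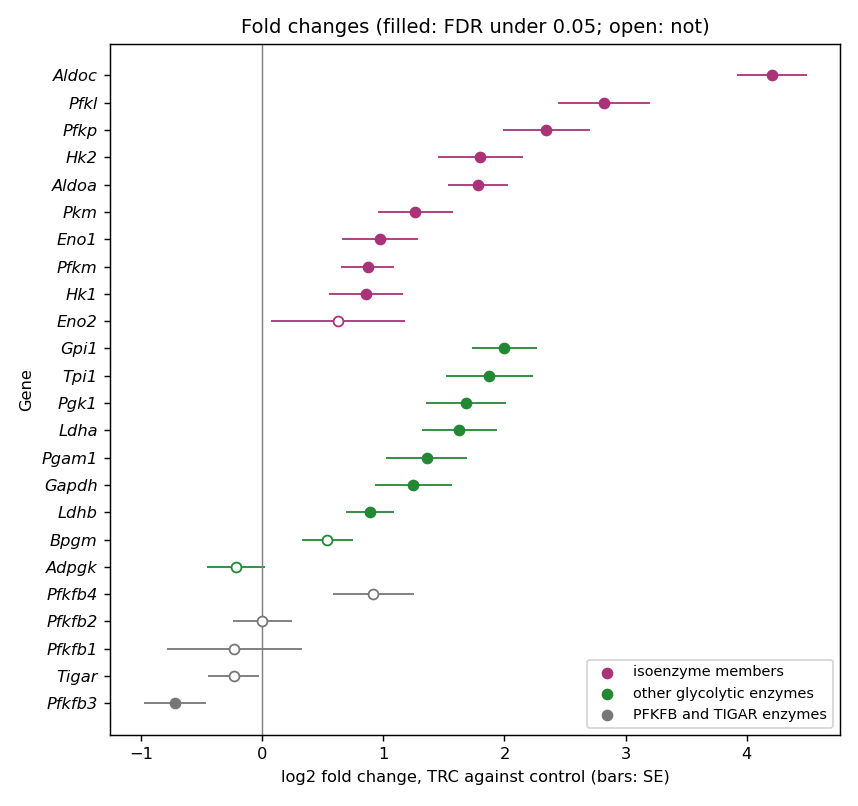
Log2 fold change of TRCs against control cells with its SE for the 10 isoenzyme genes, the 9 other glycolytic genes tested and the 5 PFKFB and TIGAR genes. Filled points passed an FDR of 0.05 by edgeR's exact test; 9 isoenzyme genes and 7 other glycolytic genes lie above 0 and passed, and *Pfkfb3* is the only filled point below 0.

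Fructose 2,6-bisphosphate is the strongest activator of phosphofructokinase, and the PFKFB enzymes make and remove it, while TIGAR removes it. Among these 5 genes 0 were called higher and 1 lower. *Pfkfb3* fell by 0.72 on the log2 scale (SE 0.26, FDR 0.0375), but the call was lost without control 1 (−0.56, FDR 0.210), without TRC 1 (−0.54, FDR 0.375) and without TRC 3 (−0.96, FDR 0.0566), and also without a filter and by the quasi-likelihood test. *Pfkfb4* had a log2 fold change of 0.92 (FDR 0.0949), *Pfkfb2* of 0.0013, *Pfkfb1* of −0.23 and *Tigar* of −0.23, and none of these passed the exact test. By DESeq2's Wald test *Pfkfb4* passed (FDR 0.0384). The genes of gluconeogenesis, which run the irreversible steps backwards, were mostly too low to test: of 8 listed, 3 were tested and 0 called, with log2 fold changes of 0.49 for *G6pc3* (FDR 0.219), 0.31 for *Pcx* (FDR 0.534) and −0.29 for *Pck2* (FDR 0.764). The value of *Pck2* was 1.28 without control 1 and −1.02 without control 3.

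Some of the counts may include or miss reads of other genes. Besides *Eno1*, 16.0% of the 101-base windows of *Pfkp* overlap *Pitrm1*, which runs tail to tail with it on the other strand, 9.52% of *Pkm* are shared with *Gm6560* and others, and 1.36% of *Hk1* with the antisense gene *Hk1os*. The libraries mark strand, but the strand setting of the counting is not given in the sources used here. *Hk2*, *Pfkl*, *Pfkm*, *Aldoa*, *Aldoc* and *Eno2* share no such window with another gene.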

How the data were processed

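RNA-seq libraries of 2 parental B16F1 control samples and 2 TRC samples were grouped by their labels. The authors made stranded single-end libraries of 101 cycles, used Trimmomatic 0.35 for trimming, TopHat2 2.1.0 for alignment (GRCm38) and HTSeq for counting, for which mode and strand setting are not given in the sources used here. The files they deposited hold unnormalized read counts for each Ensembl gene. Totals that name no gene (20.2% to 29.0% of alignments) were left out. Depth was 35948295 to 43511554 counts, and 3 counts correspond to 0.0675 to 0.0850 CPM. Genes under 1 CPM in at least 3 libraries were removed, and edgeR 4.0.16 (R 4.3.3) was run with TMM factors, common and tagwise dispersions, the exact test and a prior count of 0.125. The filter, TMM factors, tagwise dispersions and exact test follow the study's methods, with a newer version. The study names no prior count, and its table held fewer genes than the 11483 tested here. SEs came from DESeq2 1.42.0. Shares used union exon lengths from GENCODE M21, found for 37607 of 39179 identifiers, and exact permutation tests (scipy 1.17.1). The tests were tested on simulated data. Members, gene lists and tests were chosen with earlier results of these data known. Some paralogs of the steps are not reported here. The 10 members and all tested genes of the 4 enzyme and splicing factor lists are named, with the 3 genes nearest to *Aldoc*. The alternatives were other filters, scalings, tests and lengths, a replicate block, and leaving out each library. The longest protein-coding transcript as length, and contributions by counts, were added after seeing the data. Label numbers 1 and 3 do not state a shared culture or day.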

Additional observations from a re-analysis of the deposited data

Results flagged for a closer look

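Alignments that were not unique, which are outside the counts per gene, made up a larger share in the TRC libraries than in the control libraries: the lowest TRC value was 18.31% and the highest control value 17.09%, with 25.22% as the highest TRC and 15.2% as the lowest control value. Their part in the levels of the isoenzyme genes was not tested.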

How the results depend on the processing

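Over all genes, 1822 were called (1012 higher, 810 lower), and 1054 by edgeR's quasi-likelihood test (567 and 487). Leaving out 1 library gave 773 to 1932 calls, with 773 without TRC 1, 773 without TRC 3 and 863 without control 3. Of the calls 55.5% were higher in TRCs, but 65.2% without TRC 1 and 64.9% without TRC 3. A fit with 1 library in a group assumes that it varies like the other group. The number of isoenzyme genes called was 9, and 5 to 9 when a library was left out, with 5 without TRC 3; for the other glycolytic genes it was 7, and 5 to 7. *Hk2*, *Pfkl*, *Pfkp*, *Aldoa* and *Aldoc* passed under all 11 alternatives, with FDR up to 0.0363. *Hk1* also missed the threshold without a filter (FDR 0.0562) and by the quasi-likelihood test (FDR 0.105), as did *Eno1* (FDR 0.122) and *Pkm* (FDR 0.0717) by the latter. *Eno3* missed it without a filter (FDR 0.0821), with library size only (FDR 0.0613) and by the quasi-likelihood test (FDR 0.0970), and *Pfkfb3* without a filter (FDR 0.0590) and by that test (FDR 0.0742), as did *Gapdh* (FDR 0.0761) and *Pgam1* (FDR 0.05002) by that test. Over all genes tested, the label numbers were not found to pair the libraries (correlation of deviations 0.027). With a replicate block the quasi-likelihood test called 785 genes (784 of them among the 1822). It called 8 isoenzyme genes against 6 without the block, and 7 other glycolytic genes against 5. *Eno1* (FDR 0.0385), *Pkm* (FDR 0.0330), *Gapdh* (FDR 0.0372) and *Pgam1* (FDR 0.0219) passed with the block. *Hk1* (FDR 0.0773), *Eno3* (FDR 0.0576) and *Pfkfb3* (FDR 0.105) missed the threshold, and *Pfkfb2* (−0.0051) and *Pck2* (0.098) changed sign. *Pfkfb2*, near 0, also had log2 fold changes of −0.027 without a filter, −0.022 with library size only and −0.196 to 0.155 when a library was left out, *Pck2* of −1.02 to 1.28, and *Eno2* of −0.064 to 2.01.

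The share differences with a library left out ranged from 12.8 to 17.7 points for *Hk2*, 13.4 to 23.3 for *Pfkl*, −30.5 to −17.6 for *Pfkm*, 3.07 to 8.35 for *Pfkp*, −4.48 to −3.91 for *Aldoa* and −1.71 to 2.03 for *Eno1*, which was −1.52 without control 1 and −1.71 without TRC 3. By counts without length they were 11.2 for *Pfkl*, −13.7 for *Pfkm*, 2.45 for *Pfkp* and −4.67 for *Aldoa*. With the longest transcript, and with the longest protein-coding one (added after seeing the data), *Aldoa* was at −2.68, and *Pfkp* at 3.29 and 4.11. These settings differ from the reported shares in the length alone. With 2 libraries a group, no share difference can pass a permutation test, and the depth limits only paralogs with few counts.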
